A study of Mus musculus with 6 samples.

Results

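Dusp9 and 7 further MAP kinase phosphatase genes (Dusp1, Dusp2, Dusp7, Dusp8, Dusp10, Dusp14 and Dusp16) were followed in mouse embryonic stem (ES) cells labelled as Med23 knockout. The members were every probe set that the platform annotation gives to 1 of these symbols alone, which made 16 probe sets of 45037 and 8 genes of 18193. Dusp4, Dusp5 and Dusp6, the other members of the family, were set apart and serve for comparison. The measured groups were 3 arrays of Med23 knockout ES cells and 3 arrays of wild-type ES cells. Both groups are of the 129SV strain and were harvested 24 hours after a change to fresh complete medium. How the knockout was made, and how many clones were used, is not given in the labels. The arrays are called biological replicates there, and the p-values measure the spread between them.

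MAP kinase phosphatases are dual-specificity enzymes that remove phosphate from the threonine and the tyrosine of the activation loop of ERK, p38 and JNK, and so switch these kinases off. The nuclear, rapidly inducible enzymes DUSP1 and DUSP2 act on several MAP kinases. DUSP7 and DUSP9 belong to the cytoplasmic group that prefers ERK, whereas DUSP8, DUSP10 and DUSP16 prefer JNK and p38. DUSP14 is a small enzyme without the kinase-binding domain of the others. In mouse ES cells ERK activity favours exit from self-renewal. Dusp9, an X-linked gene, is known there as a BMP target whose product dampens ERK. MED23 is the Mediator subunit through which phosphorylated ELK1, an ETS factor downstream of ERK, activates Egr1.

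The deposited values are on a log2 scale, with a median of 4.62 over all probe sets and arrays. Detection calls were not used here, and where a group averages less than 4.62 the extent of its change is poorly measured. Med23 itself had 7.40, 7.37 and 7.33 in the knockout arrays, against 8.95, 8.86 and 8.84 in the wild-type arrays. Its log2 fold change, knockout minus wild-type throughout, was -1.52 (SE 0.06, limma adjusted p = 2.69e-05). Med23 was thus still read above 4.62 in the knockout, and the source of this signal was not examined. Wild-type replicate 1 stood apart, with 752 probe sets 2-fold or more lower than the average of the other wild-type arrays, against at most 4 on any other array within its group. Counted the other way, 219 probe sets on wild-type replicate 3 and 75 on wild-type replicate 2 were 2-fold or more higher than the average of the other wild-type arrays, against at most 1 on any other array. Of 7 measured Y-linked genes 5 were higher in the knockout, Eif2s3y at 9.71 to 10.01 in the knockout against 2.66 to 3.40 in the wild-type. An effect of Med23 therefore cannot be told apart from other differences between the cell lines.

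Of the 8 phosphatase genes, each read by its brightest probe set, 5 fell in the knockout: Dusp1, Dusp2, Dusp9, Dusp10 and Dusp14. None rose past the test (limma, adjusted p under 0.05 over all probe sets), and 1 gene, Dusp16, was higher at an unadjusted p under 0.05. Over all genes 10.4% fell and 8.53% rose. Among genes whose mean lay above 4.62, as it did for all 8 brightest probe sets, 14.5% fell. The median log2 fold change of the 8 genes was -0.54, beside 0.022 over all genes. Over the 16 probe sets 8 fell, none rose and 2 were higher at an unadjusted p under 0.05. Of all probe sets 7.43% fell and 6.69% rose. When that array, wild-type replicate 1, was left out, 3 of the 8 genes fell (Dusp1, Dusp9 and Dusp14), and the adjusted p was 0.0578 for Dusp2 and 0.0764 for Dusp10. Leaving out knockout replicate 2, knockout replicate 3 or wild-type replicate 3 also gave 3. Of all 45037 probe sets, 3346 fell with all arrays and 3613 without wild-type replicate 1. Without knockout replicate 2, knockout replicate 3 or wild-type replicate 3, the probe sets that fell numbered 2295, 2289 and 2973.

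**Figure D1:**
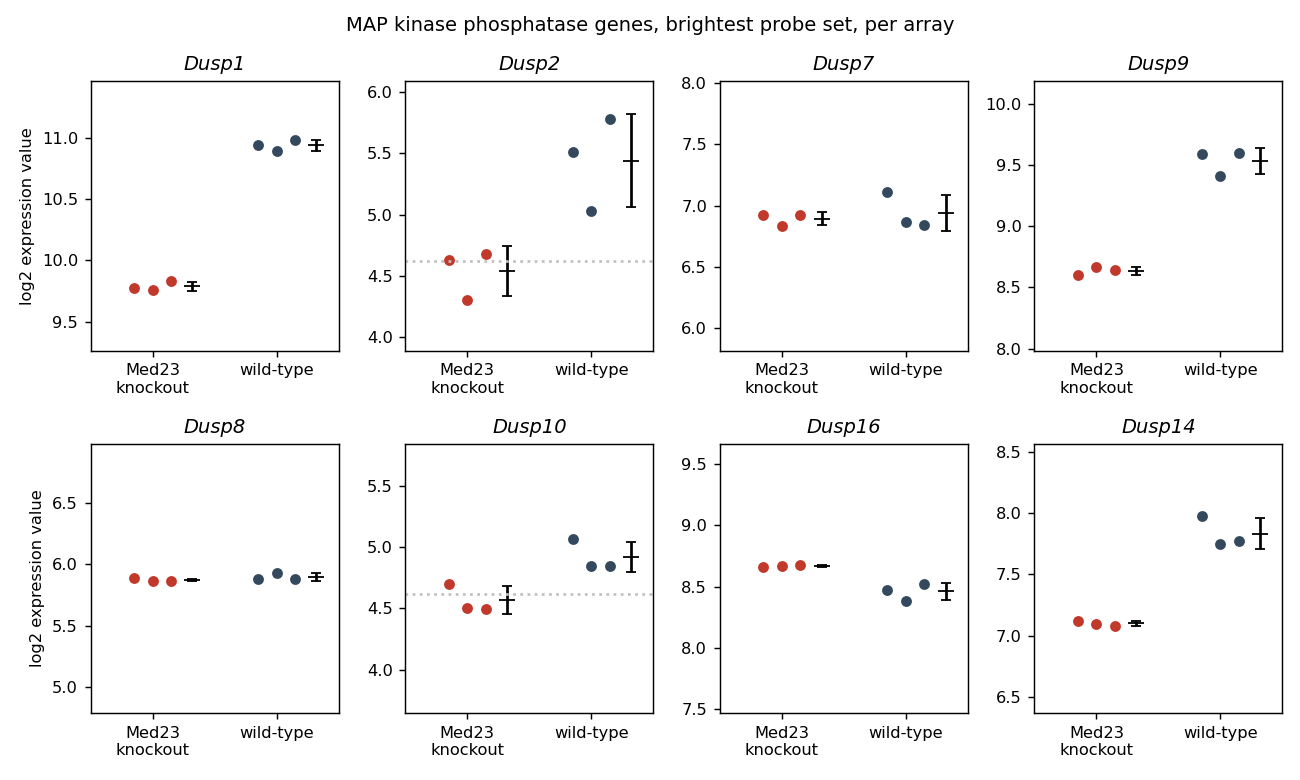
Log2 expression value (y axis, each panel spanning the same width in log2 units) of the brightest probe set of each gene in the 3 Med23 knockout arrays (red, left) and the 3 wild-type arrays (dark, right); bars are mean ± SD, and the dotted line is the median of all probe sets, 4.62. Knockout and wild-type arrays are apart in Dusp1, Dusp2, Dusp9, Dusp10 and Dusp14, with the knockout lower, and in Dusp16, with the knockout higher.

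Arrays of the groups did not overlap in 6 of the 8 genes, with the knockout lower in 5 and higher in 1. Over all genes the groups did not overlap in 40.9%, with the knockout lower in 19.5% and higher in 21.4%.

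Dusp9 was read by 3 probe sets, all annotated to a single sequence record, so they are not independent readings. The brightest (1433845_x_at) had 8.60, 8.66 and 8.65 in the knockout arrays, against 9.59, 9.41 and 9.60 in the wild-type arrays. The knockout arrays lay together below every wild-type array, and wild-type replicate 2 was the lowest of its group. The means were 8.64 ± 0.03 in the knockout and 9.53 ± 0.11 in the wild-type (SD, n = 3 each). Dusp9 thus fell by 0.90 on the log2 scale (SE 0.07, 95% interval -1.07 to -0.72, limma adjusted p = 0.000398), or 1.86-fold. The suffix of this probe set marks probes that can also match other transcripts. The probe set without such a mark (1454737_at) had 8.39, 8.41 and 8.36 in the knockout, against 9.31, 9.07 and 9.33 in the wild-type, and fell by 0.85 (SE 0.08, limma adjusted p = 0.000852). The other probe set (1433844_a_at) had 8.22, 8.15 and 8.20 in the knockout, against 9.08, 8.86 and 9.13 in the wild-type, and fell by 0.83 (SE 0.08, limma adjusted p = 0.000964). All 3 had wild-type replicate 2 as the lowest wild-type array. Of all 18193 genes, 454 (2.50%) had a log2 fold change as low as that of Dusp9 or lower.

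Dusp7, the other cytoplasmic ERK phosphatase gene among the members, did not pass the test with any of its 3 probe sets. The brightest (1427416_x_at) had 6.92, 6.84 and 6.93 in the knockout, against 7.11, 6.87 and 6.84 in the wild-type, and the groups overlapped. Its log2 fold change was -0.043 (95% interval -0.25 to 0.16, limma adjusted p = 0.818). It was 0.042 when wild-type replicate 1 was left out. Like the brightest probe set of Dusp9, this probe set has a suffix for probes that can also match other transcripts. The next probe set (1452097_a_at) had 6.83, 6.63 and 6.77 in the knockout, against 7.01, 6.87 and 7.01 in the wild-type, without overlap. Its log2 fold change was -0.22 (95% interval -0.41 to -0.03, limma adjusted p = 0.128). The dimmest (1460393_a_at) averaged 4.49 ± 0.06 in the knockout and 4.60 ± 0.21 in the wild-type (SD, n = 3 each), below 4.62 in both groups. Within each array, the value of Dusp9 minus that of Dusp7 was 1.68, 1.83 and 1.72 in the knockout, against 2.48, 2.54 and 2.76 in the wild-type. All 3 knockout values lay below all 3 wild-type values. The group means differed by -0.85, with p = 0.1 in a two-sided exact permutation test, the smallest value that 3 arrays against 3 allow. The lack of overlap alone fixes this p, so it adds no further support. Dusp7 was read here by its brightest probe set, which changed by -0.043, so the difference mostly restates the fall of Dusp9.

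**Figure D2:**
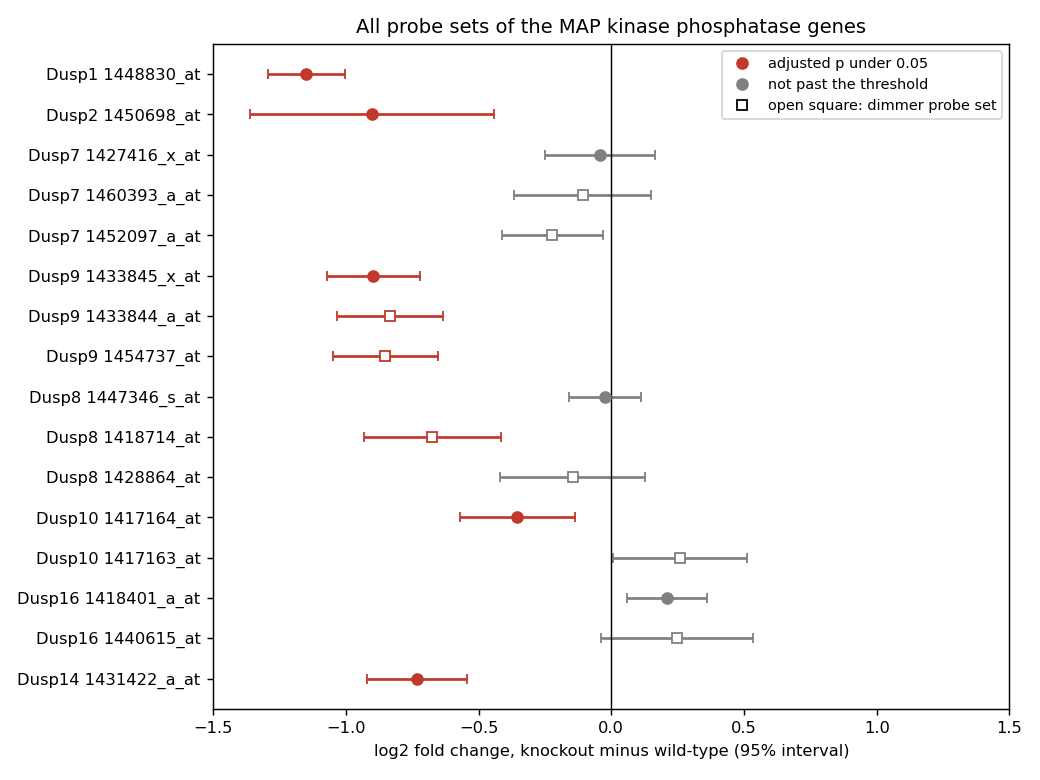
Log2 fold change, knockout minus wild-type (x axis), with its 95% interval for all 16 probe sets, grouped by gene; red marks an adjusted p under 0.05, grey a probe set that did not pass, and open squares the dimmer probe sets of a gene. The 3 Dusp9 probe sets lie between -0.90 and -0.83, while the probe sets of Dusp8 and of Dusp10 are spread.

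Dusp1 encodes the nuclear phosphatase MKP-1 and is itself an immediate early gene. Its only probe set had 9.77, 9.76 and 9.83 in the knockout arrays, against 10.94, 10.89 and 10.98 in the wild-type arrays. The spread within each group was small beside the distance between them. Dusp1 fell by 1.15 (SE 0.06, 95% interval -1.29 to -1.01, limma adjusted p = 6.62e-05), or 2.22-fold, the largest change among the 8 genes. Of all genes, 259 (1.42%) had a log2 fold change as low or lower. When wild-type replicate 1 was left out the value was -1.15 (limma adjusted p = 0.000423).

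Dusp2, the gene of the nuclear ERK and p38 phosphatase PAC-1, gave 4.63, 4.31 and 4.68 in the knockout, against 5.51, 5.03 and 5.78 in the wild-type. Its wild-type arrays spread more than those of any other member. Dusp2 fell by 0.90 (SE 0.20, 95% interval -1.36 to -0.44, limma adjusted p = 0.0236). Its knockout mean of 4.54 lay below 4.62, so the size of the fall is uncertain. Leaving out single arrays ended the call in 5 of 6 fits (limma adjusted p up to 0.0840, without knockout replicate 2); it held when wild-type replicate 2 was left out (limma adjusted p = 0.00910).

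The promoters of the inducible members were set beside those of other members, because ERK and cAMP signals reach such genes through short DNA elements. RefSeq windows of 300 bases (GRCm38.p6), from 250 before to 50 after the start site, matched 7 of the 8 genes, all but Dusp9. Those of 3 genes that fell and of Dusp8, whose brightest probe set did not pass, are printed 5′ to 3′ on the strand of the gene. Capitals mark matches on either strand to the cAMP response element TGACGTCA or its core TGACG, to the ETS motif CCGGAA and to the EGR motif GCGNGGGCG.
Dusp1, chr17:26508423-26508722, minus strand: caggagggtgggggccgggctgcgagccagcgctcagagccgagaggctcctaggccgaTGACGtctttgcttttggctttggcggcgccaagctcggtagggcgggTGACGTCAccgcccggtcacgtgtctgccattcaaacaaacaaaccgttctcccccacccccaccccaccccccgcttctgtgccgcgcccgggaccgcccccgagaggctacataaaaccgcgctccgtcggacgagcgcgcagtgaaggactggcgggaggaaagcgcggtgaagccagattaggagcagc
Dusp2, chr2:127335909-127336208, plus strand: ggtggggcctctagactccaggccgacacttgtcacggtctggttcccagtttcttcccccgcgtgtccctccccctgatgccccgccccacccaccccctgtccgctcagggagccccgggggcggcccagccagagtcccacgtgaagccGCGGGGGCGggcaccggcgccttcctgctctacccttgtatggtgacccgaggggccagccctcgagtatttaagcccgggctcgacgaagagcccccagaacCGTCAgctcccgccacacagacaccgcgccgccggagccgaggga
Dusp14, chr11:84068308-84068607, minus strand: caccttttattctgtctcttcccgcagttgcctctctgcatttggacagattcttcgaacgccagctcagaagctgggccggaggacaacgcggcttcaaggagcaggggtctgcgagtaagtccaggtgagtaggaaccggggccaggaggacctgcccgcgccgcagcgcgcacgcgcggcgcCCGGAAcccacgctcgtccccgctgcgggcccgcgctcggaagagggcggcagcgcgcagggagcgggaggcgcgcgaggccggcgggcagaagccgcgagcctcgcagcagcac
Dusp8, chr7:142095235-142095534, minus strand: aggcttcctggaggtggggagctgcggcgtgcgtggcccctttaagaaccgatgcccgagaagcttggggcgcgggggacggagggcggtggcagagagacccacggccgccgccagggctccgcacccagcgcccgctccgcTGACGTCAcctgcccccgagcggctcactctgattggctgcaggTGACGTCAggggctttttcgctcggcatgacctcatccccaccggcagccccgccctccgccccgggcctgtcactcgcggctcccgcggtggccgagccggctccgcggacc

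The full cAMP response element was found at -143 in the Dusp1 window and at -107 and -63 in the Dusp8 window, counted from the start site to the first base of the match. It was in none of the other 5 windows and in 1.79% of all 32851 windows. Its core, which lies in the full element on both strands, was also found at -191 in Dusp1, at 6 in Dusp2 and at -70 in Dusp16, and it was in 20.8% of all windows. The ETS motif was found in Dusp14 alone, at -65, beside 14.9% of all windows. The EGR motif was found at -98 in Dusp2 and at -138 in Dusp16, beside 5.55% of all windows. The GC-rich SMAD element GGCGCC, not marked in capitals, was in the windows of Dusp1, Dusp2, Dusp7 and Dusp14, beside 11.9% of all windows; in Dusp14 it overlaps the ETS motif by 1 base. The CArG box of serum response factor had no match in the 7 windows and 1.63% of all windows held it. Windows with and without the full element thus occurred both among genes that fell and among genes that did not pass. Only the first window listed for each member was read, while the 32851 windows belong to 27025 genes. Any other start site of a member was not covered.

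The JNK and p38 phosphatase genes were mixed. Dusp8 was read by 3 probe sets. The brightest (1447346_s_at) had 5.88, 5.87 and 5.87 in the knockout, against 5.88, 5.93 and 5.88 in the wild-type, a log2 fold change of -0.024 (95% interval -0.16 to 0.11, limma adjusted p = 0.850). The suffix of this probe set also marks probes that can match other transcripts. The middle one (1428864_at) averaged 5.24 ± 0.11 in the knockout and 5.38 ± 0.20 in the wild-type (SD, n = 3 each) and did not pass either. The dimmest (1418714_at) had 3.70, 3.31 and 3.44 in the knockout, against 4.10, 4.26 and 4.11 in the wild-type, and fell by 0.67 (SE 0.11, limma adjusted p = 0.00724). Both of its group means lay below 4.62, so the reading of Dusp8 depends on the probe set, and the mean of its 3 probe sets passed the test at -0.28 (limma adjusted p = 0.0377).

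Dusp10, the gene of MKP-5, had 4.70, 4.50 and 4.50 with its brighter probe set (1417164_at) in the knockout, against 5.06, 4.85 and 4.85 in the wild-type. It fell by 0.35 (SE 0.09, 95% interval -0.57 to -0.14, limma adjusted p = 0.0456), and its values lie close to the median of all probe sets. The dimmer probe set (1417163_at) had 3.40, 3.10 and 3.03 in the knockout, against 2.86, 2.89 and 3.01 in the wild-type, with a log2 fold change of 0.26 (limma adjusted p = 0.179). The fall of Dusp10 therefore rested on 1 probe set near the threshold. Leaving out single arrays ended the call in 5 of 6 fits (limma adjusted p up to 0.151, without knockout replicate 3); it held when knockout replicate 1 was left out (limma adjusted p = 0.0486).

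Dusp16, the gene of the JNK phosphatase MKP-7, had 8.66, 8.67 and 8.68 with its brighter probe set (1418401_a_at) in the knockout, against 8.48, 8.38 and 8.52 in the wild-type. Every knockout array lay above every wild-type array. The log2 fold change was 0.21 (SE 0.06, 95% interval 0.06 to 0.36, limma adjusted p = 0.0769), which did not pass. The dimmer probe set (1440615_at) averaged 2.78 ± 0.24 in the knockout and 2.53 ± 0.06 in the wild-type (SD, n = 3 each), both below 4.62.

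Dusp14, the gene of the small phosphatase also called MKP-6, had 7.12, 7.10 and 7.08 in the knockout, against 7.98, 7.75 and 7.77 in the wild-type. The groups did not overlap, and wild-type replicate 1 was the highest array. Dusp14 fell by 0.73 (SE 0.08, 95% interval -0.92 to -0.54, limma adjusted p = 0.00129), or 1.66-fold, and by 0.66 without wild-type replicate 1 (limma adjusted p = 0.00169).

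Of the phosphatase genes set apart, Dusp5, a nuclear ERK phosphatase gene, fell by 0.78 (SE 0.085, limma adjusted p = 0.00132), and the cytoplasmic ERK phosphatase gene Dusp6 fell by 0.56 (SE 0.06, limma adjusted p = 0.00141). Dusp4 had 8.54, 8.64 and 8.65 in the knockout, against 8.68, 8.61 and 8.09 in the wild-type, and did not pass (0.15, limma adjusted p = 0.600). Together, 7 of the 11 genes of the family fell and none rose past the test, at the background given above. Dusp14, whose product lacks the kinase-binding domain, is counted here and not among the atypical phosphatases below.

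Dusp9 lies on the X chromosome, and the groups differed in Y-linked genes, so its surroundings were examined. Of 617 X-linked genes 14.1% fell and 7.94% rose, beside 10.3% and 8.54% of 17404 autosomal genes, and the median log2 fold change was 0.0021 for X-linked and 0.022 for autosomal genes. Among X-linked genes with a mean above 4.62, 20.9% fell, and 27 of 359 (7.52%) had a log2 fold change below that of Dusp9. Among autosomal genes above the same level 14.4% fell, and 386 of 11208 (3.44%) had a log2 fold change below that of Dusp9. These shares were not tested against each other. Of the 3 nearest measured genes on each side in RefSeq order (Haus7, Bgn and Atp2b3, then Pnck, Slc6a8 and Bcap31), the creatine transporter gene Slc6a8 alone fell (-0.60, limma adjusted p = 0.00126). The other 5 lay between -0.15 and 0.14. Among the 20 measured genes on each side, 2 fell and 2 rose and the median log2 fold change was -0.0047. The other 3 of these, named after their values were seen, were L1cam (-0.45), Zfp185 (0.37) and Renbp (0.69). Of the RNAs of X inactivation, Xist had 7.25, 7.12 and 7.44 in the knockout, against 6.46, 6.85 and 6.98 in the wild-type, and did not pass (0.51, limma adjusted p = 0.0668), while its antisense partner Tsix rose by 1.24 (limma adjusted p = 0.00141). Whether these overlapping RNAs can be told apart depends on the strand of their probes, which was not examined. The part of the sex chromosomes in the fall of Dusp9 was not tested.

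**Figure D3:**
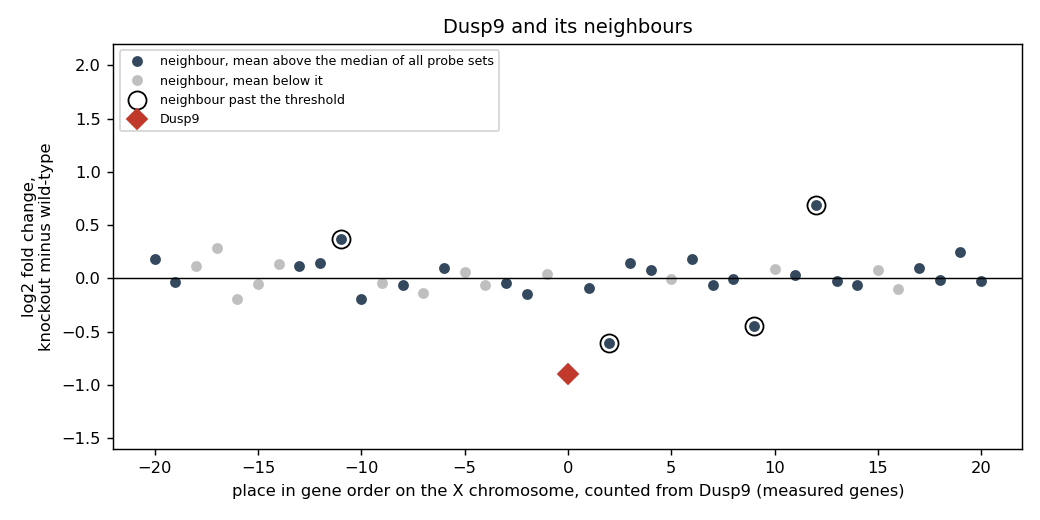
Log2 fold change, knockout minus wild-type (y axis), of Dusp9 (red diamond) and the 20 measured genes on each side of it in the order of genes along the X chromosome (x axis, places counted from Dusp9); dark points have a mean above the median of all probe sets, light points do not, and rings mark an adjusted p under 0.05. Dusp9 at -0.90 is the lowest point, and most neighbours lie close to 0.

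The 20 measured neighbours on each side of each of the other 7 members had median log2 fold changes between -0.065 and 0.049. Of the 40 neighbours of Dusp10, 7 fell and 2 rose, beside 10.4% and 8.53% of all genes. For each of the other 6 members, at most 3 neighbours fell. The neighbours that rose numbered 6 for Dusp2, 5 for Dusp1, 4 for Dusp16 and at most 3 for Dusp7, Dusp8 and Dusp14.

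Over the 6 arrays, the 5 genes whose log2 values followed those of Dusp9 most closely were Pfn2, Nxn, Mapkapk3, Crip2 and Slc44a2, with Pearson r of 0.9990 to 0.9997 among 11606 genes. With groups this far apart such a value mainly describes the difference between the groups, and it is given as a description over 6 arrays. Mapkapk3, which encodes a kinase activated by p38, had 9.34, 9.37 and 9.35 in the knockout, against 10.37, 10.18 and 10.43 in the wild-type.

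The kinase cascades on which these enzymes act were counted beside the 10.4% of all genes that fell and the 8.53% that rose. Of 15 measured genes of the ERK cascade, from adaptors and RAS regulators to the kinases, none fell and 1 rose, beside 1 and 5 at an unadjusted p under 0.05. The gene that rose was Shoc2, whose product promotes RAF activation, with 8.62, 8.68 and 8.72 in the knockout, against 7.20, 7.60 and 7.47 in the wild-type (1.25, limma adjusted p = 0.000441). The median over this list was 0.16 (log2 fold change), and 2 genes rose when wild-type replicate 1 was left out. Of 21 genes of the p38, JNK and ERK5 cascades 4 fell and 3 rose, with a median of -0.0050. Those with the largest changes were the kinase gene Map3k2 (1.66), the p38 target gene Mapkapk3 (-0.97), the JNK gene Mapk8 (-0.76) and the p38 gene Mapk13 (-0.54).

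Of 15 atypical dual-specificity phosphatase genes 3 fell and 1 rose, with a median of -0.10. The rise was that of Dusp27 (3.70), whose wild-type mean lay below 4.62, and the falls were those of Dusp22 (-0.53), Dusp11 (-0.26) and Dusp12 (-0.23). None of 9 genes of other phosphatases that act on MAP kinases, such as subunits of PP2A, passed the test (limma); 2 were lower and 1 higher at an unadjusted p under 0.05. The lowest p-values among them were those of Ppm1d (-0.21, limma adjusted p = 0.136) and Ppm1a (-0.16, limma adjusted p = 0.158).

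Genes known to be induced by ERK include immediate early genes, as Dusp1 is, and feedback inhibitors. Of 21 measured genes of this list 11 fell and 2 rose, with a median of -0.40. The zinc finger gene Egr1 (-4.88), the AP-1 gene Jun (-2.06), Phlda1 (-1.98) and Junb (-0.94) showed the largest changes. Spry2, a feedback inhibitor of receptor tyrosine kinase signalling, fell by 0.92, whereas its relatives Spry1 and Spred2 rose by 0.50 and 0.32. The counts were 11 and 3 when wild-type replicate 1 was left out.

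Of 16 measured genes of the BMP pathway, to which Dusp9 responds in ES cells, 7 fell and 2 rose, with a median of -0.33. The inhibitor of differentiation gene Id1 (-1.67), the ligand gene Bmp4 (-1.63), Id2 (-1.43) and Id4 (-0.82) fell furthest. The mediator gene Smad1 rose by 0.36 and the inhibitory gene Smad6 by 0.39. Smad7 had a log2 fold change of -0.15 (limma adjusted p = 0.265). They were 8 and 2 when wild-type replicate 1 was left out. Dusp9, at -0.90, thus lay between Id2 and Id4 in size.

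**Figure D4:**
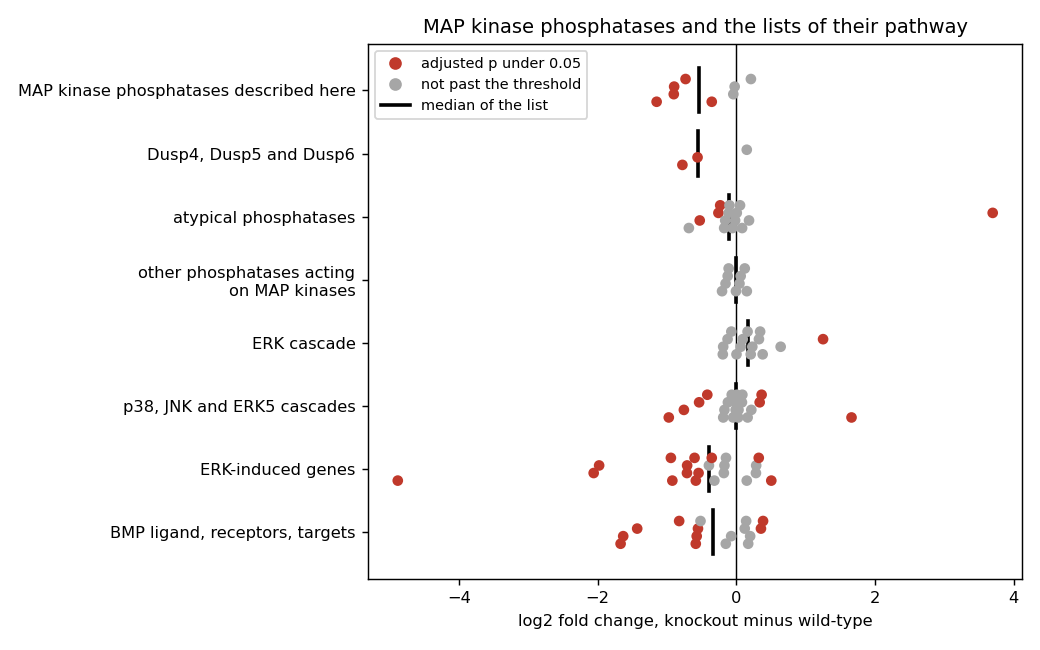
Log2 fold change, knockout minus wild-type (x axis), of each measured gene in the 8 phosphatase genes and in the lists of their pathway; red marks an adjusted p under 0.05, grey a gene that did not pass, and the vertical bar the median of the list. The medians of the 8 phosphatase genes (-0.54), of Dusp4 to Dusp6 (-0.56), of ERK-induced genes (-0.40) and of the BMP list (-0.33) are below 0. Those of the atypical and the other phosphatases are -0.10 and -0.0049. The ERK cascade has a median of 0.16 and the p38, JNK and ERK5 cascades one of -0.0050.

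The ES cell identity was checked on 12 pluripotency markers. Pou5f1, Nanog and Sox2 were between 11.42 and 13.01 on every array and did not pass the test; of the 12 markers 2 fell, Klf4 (-0.63) and Fgf4 (-0.37), and 1 rose, Klf2 (0.62). Without wild-type replicate 1, 4 rose. Among markers of other cells, those of endoderm fell as a list. Of 12 endoderm markers 11 fell and none rose, also at an unadjusted p under 0.05, and their summed log2 level was 59.5 to 60.2 in the knockout, against 84.5 to 90.0 in the wild-type. Col4a2 (-3.71), Col4a1 (-3.41), Dab2 (-3.38) and Cubn (-3.11) fell furthest, and Afp was at 4.29 or lower on every array. Of 9 trophoblast markers 3 fell, Krt8 (-2.52), Krt7 (-1.91) and Krt18 (-1.67), with a summed level of 54.0 to 54.7 in the knockout, against 59.5 to 61.1 in the wild-type. All 3 are keratin genes; the other 6 trophoblast markers had log2 fold changes between -0.27 and 0.41 and did not pass the test, Eomes being higher at an unadjusted p of 0.0142, and the median over the list was -0.10. Of 7 neural markers 4 fell and 1 rose, with Olig1 (-4.15), Olig2 (-2.34), Pax6 (2.21) and Map2 (-1.49) changing most. Of 7 mesoderm markers 2 fell, Twist1 (-0.61) and Snai1 (-0.41), and of 8 fibroblast markers 2 fell, Tgfbi (-0.79) and Thy1 (-0.73). Without wild-type replicate 1, the counts that fell were 11 for endoderm and 1 for mesoderm markers. These are bulk samples, in which fewer cells of a type and less RNA per cell cannot be told apart. The part of other cell types in the falls of Dusp1, Dusp2, Dusp9, Dusp10 and Dusp14 was not tested.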

How the data were processed

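Total RNA from 6 cultures was extracted with Trizol and hybridised to Affymetrix arrays as biotinylated cRNA, per the labels' protocols. The authors deposited log2 expression values, 1 column for each array; the base of the log was inferred from their range. RMA and MAS5 are named in the submitters' processing notes, without roles or versions. The values were used as deposited. There were 0 columns of other samples. The number of arrays limits the precision, and no scan date or other batch is named in the labels.

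The table holds 45101 probe sets, of which 64 are array controls and were not used. The platform annotation named 1 symbol for 34945 probe sets, several for 932 and none for 9160, and 34741 of the first were matched by Entrez identifier to RefSeq genes (GRCm38.p6), used for current symbols, gene order and promoter windows. The probe set with the highest mean stood for a gene. Knockout and wild-type were compared with limma 3.58.1 (R 4.3.3; lmFit, then eBayes without trend) for each of 45037 probe sets. The test was two-sided, p-values were adjusted by Benjamini-Hochberg over all of them, and 0.05 was the threshold. Residual degrees of freedom were 4, with 3.08 from the prior. Tested on simulated data of this comparison with 45037 probe sets, the fit called 48% of true log2 changes of 0.5, 96% of those of 1, 100% of those of 1.5 and 100% of those of 2 (50 probe sets each), with 16 false calls. Only these probe sets were changed, whereas 3346 fell and 3013 rose in the data, so the adjustment was stricter in the simulation. Its noise was independent, with no array that stood apart. The simulated shares and false calls therefore do not measure those of the real comparison.

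The members and lists were chosen with earlier results of these data known. Named genes were all members, for each list up to 4 genes that passed, taken by size of change (where none passed, the 2 of lowest p), Dusp4 to Dusp6, the 3 nearest genes on each side of Dusp9 and the 5 genes most correlated with it; further genes were named for contrast or chosen after their values were seen. Alternatives were quantile normalization, median centring, an intensity trend, array weights, a filter on dim probe sets, a replicate block, the mean of a gene's probe sets, and leaving out each array. Some list genes were not analysed here.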

Additional observations from a re-analysis of the deposited data

How the results depend on the processing

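Dusp1, Dusp9 and Dusp14 kept their direction and their call under all 13 alternatives, at -1.17 to -1.13, -0.96 to -0.86 and -0.77 to -0.66. Dusp10 lost its call with quantile normalization (-0.34), median centring (-0.35), an intensity trend (-0.35) and the mean of its probe sets (-0.048, which includes a dimmer probe set of opposite sign). Dusp16 passed with an intensity trend (0.21), with array weights (0.23) and with the filter on dim probe sets (0.21, with fewer probe sets tested), which made the number of members that rose 1 in each of those fits. Dusp8 passed as the mean of its probe sets (-0.28). When single arrays were left out, Dusp2 ran from -1.11 to -0.73, Dusp10 from -0.42 to -0.28 and Dusp7 from -0.093 to 0.042, where it turned sign without wild-type replicate 1 (0.042), and the number of members that fell was 3 to 4. With the filter the SE of Dusp16 was also smaller, 0.054 beside 0.064 in the fit reported. The causes of these shifts were not tested.

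The replicate numbers are shared by the groups, but arrays of the same number did not deviate together (correlations of -0.13, -0.059 and 0.00083 for replicates 1, 2 and 3), so they were not taken as pairs. With the replicate block 5 members fell and 0 rose, Dusp9 being -0.90 (limma adjusted p = 0.00429). Over all probe sets 3346 fell and 3013 rose in the fit reported, and 2678 fell and 1915 rose with the block. The ranges without 1 array were 2289 to 3613 for falls and 1497 to 3494 for rises. Values near the median of all probe sets limit Dusp2 and Dusp10, and values below it limit the dimmest probe set of Dusp8.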
